A study of Oryza sativa with 6 samples.

Results

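The 10 rice loci described here encode flowering-time and meristem MADS-box transcription factors and were followed in basal shoots of the knockout line pine1-1a and of wild-type Nipponbare (WT). They were taken by locus identifier: the SOC1-like OsMADS50 and OsMADS56, the SVP-like OsMADS22, OsMADS47 and OsMADS55, the AP1-like OsMADS14, OsMADS15 and OsMADS18, the SEP-like OsMADS34, and OsMADS51. These are 10 loci beside a table of 27397 genes, in which 9 of them have a row. OsMADS15 (Os07g0108900) was not read: it has no row in that table, whose lowest total is 10 reads over the 6 libraries. A filter on low reads kept 7 of the 9, and OsMADS14 and OsMADS34 are described by their reads alone.

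The groups were pine1-1a, a knockout in the Nipponbare background, and wild-type Nipponbare, with 3 samples of each. Each sample pooled 8 plants, of which about 1 cm of the base, with stem and shoot apex, was taken 20 days after germination. All plants grew in soil under 16 h of light a day and received no treatment. The labels name 1 knockout allele, and they do not say whether pools were sown apart. The p-values therefore rest on the spread between pools of plants, which may be technical.

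MADS-box proteins bind DNA as dimers and larger complexes and set the identity of meristems and floral organs. In rice, florigen made in the leaf reaches the apex and is followed by a rise of AP1-like genes and of OsMADS34, which turn the vegetative meristem into an inflorescence meristem. SOC1-like genes act earlier in the choice of flowering time, and SVP-like genes in grasses act on vegetative growth and brassinosteroid response. The study linked PINE1 to internodes that stay short before flowering and to florigen-like proteins. Whether these loci report the state of the apex was not tested.

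Each library held between 27918842 and 36250239 recovered reads. By limma, 6.46% of 24149 tested genes were called at an adjusted p under 0.05, 4.02% higher and 2.44% lower in pine1. PINE1 itself (Os12g0617000) was read in every library and was called higher in pine1, a call that ended without pine1 replicate 1 or 2 or WT replicate 1 or 3 (limma adjusted p up to 0.0728). The labels call the line a knockout and do not state which change it carries in the gene, so the RNA level neither bears out nor contradicts them. Apex markers were read in all libraries: the 5 KNOX loci fixed as such summed to 3599 to 4476 normalized reads in pine1, against 2036 to 2640 in WT, and none was at 0. The authors' deposited table also ties 1 of them, OSH15 (Os07g0129700), to internode development. The pieces held stem, so these reads need not come from the apex alone. The 5 leaf blade markers, none at 0, summed to 40044 to 44824 in pine1 and 30228 to 35103 in WT, most of it from CAB2R (Os01g0600900). Without it, a sum added after the data were seen, the other 4 overlapped, at 9406 to 10915 in pine1 and 8521 to 11025 in WT. Of the 5, CAB2R and RbcS3 (Os12g0291100) were called higher, and 3 were not called. The RbcS3 call (limma adjusted p = 0.0486) ended with the filter of 5 CPM, upper-quartile scaling and the replicate block, and without any library but pine1 replicate 1 (adjusted p up to 0.141). Root markers summed lower, to 109 to 312 in pine1 and 363 to 594 in WT (2 loci, neither at 0). Most of that sum came from Os02g0662000, which was not called (log2 -1.18, SE 0.40, limma adjusted p = 0.134). The other locus, Os01g0704100, was called higher. That call ended with DESeq2 and without any library but pine1 replicate 3 (adjusted p up to 0.11). With 7, 7 and 6 reads in WT replicates 1 to 3, this locus passed the filter on low reads only through pine1. The part of these tissue shares in the results below was not tested. In pooled tissue, fewer cells of a type and less RNA per cell cannot be told apart.

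The SOC1-like pair rose in pine1, and no other member passed the test. Of the 7 members tested, 2 were called higher and 0 lower by limma, against 6.46% of all genes called in either direction. edgeR and DESeq2 on the recovered reads gave the same counts, and at an unadjusted p under 0.05 limma had 2 higher and 1 lower. The median log2 fold change of the 7 was -0.02, beside 0.00 over all genes tested. In 3 of the 7 the pine1 and WT ranges stood apart, where 26.4% of all tested genes show this.

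**Figure D1:**
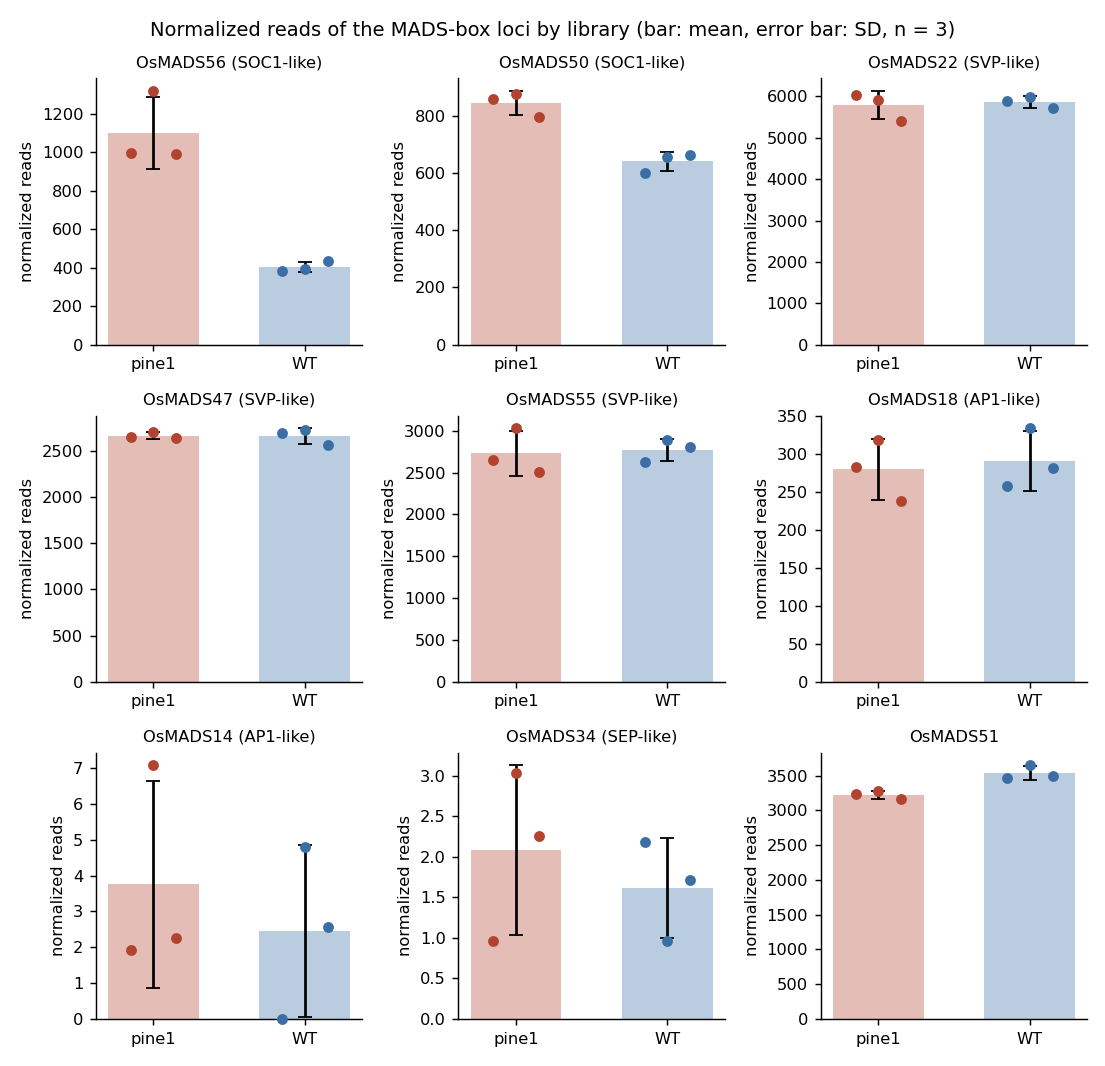
Normalized reads of the 9 loci with a row in the table, for pine1 (red, left) and WT (blue, right); points are libraries, bars means and error bars SD (n = 3). The pine1 libraries of OsMADS56 sit between 991 and 1317 and those of WT between 383 and 433, while the SVP-like loci overlap.

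OsMADS56 (Os10g0536100, chromosome 10), which the authors' deposited table describes as holding back flowering when days are long, showed the larger change. Its normalized reads were 993, 1317 and 991 in pine1 replicates 1 to 3, against 383, 393 and 433 in WT replicates 1 to 3. Every pine1 library lay above every WT library, and the lowest pine1 value was 2.29-fold the highest WT value. The mean was 1101 ± 187 in pine1 and 403 ± 26.5 in WT (SD, n = 3 each). The log2 fold change was 1.43 (SE 0.12, 95% interval 1.17 to 1.70, limma adjusted p = 1.6e-04), a 2.70-fold rise. Behind these values stood 1028, 1303 and 879 recovered reads in pine1 and 351, 409 and 507 in WT. The pine1 libraries also differed more among themselves, with a coefficient of variation of 17.0% in pine1 and 6.58% in WT. Replicate 2 of pine1 was the high one, and without it the log2 fold change was 1.30 (limma adjusted p = 2.8e-04). Ordered by fold, OsMADS56 stood in place 267 of the 970 genes called higher, and in place 80 of 24149 by p-value.

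OsMADS50 (Os03g0122600, chromosome 3), the rice relative of SOC1 and a promoter of flowering in long days, rose by a smaller amount. Its normalized reads were 861, 876 and 796 in pine1 replicates 1 to 3, against 602, 657 and 663 in WT replicates 1 to 3. The ranges did not overlap, with the lowest pine1 library 1.20-fold above the highest WT library. The mean was 844 ± 42.4 in pine1 and 641 ± 34.0 in WT (SD, n = 3 each), a 1.32-fold rise (log2 0.40, SE 0.07, 95% interval 0.23 to 0.56, limma adjusted p = 0.0135). Of the 1559 called genes, 343 had a smaller absolute log2 fold change. The call ended without pine1 replicate 2 (limma adjusted p = 0.0502) and without WT replicate 1 (limma adjusted p = 0.058), at log2 fold changes of 0.37 and 0.35. In the authors' deposited table the log2 fold change of WT over pine1 is -0.40 for OsMADS50 and -1.45 for OsMADS56, the same direction in both, since that table puts WT on top.

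The balance within the SOC1-like pair was followed by its read ratio. The ratio of OsMADS56 to OsMADS50 normalized reads was 1.15, 1.50 and 1.24 in pine1 replicates 1 to 3, against 0.638, 0.599 and 0.654 in WT replicates 1 to 3. OsMADS56 thus had more reads than its partner in each pine1 library and fewer in each WT library. These are reads without correction for transcript length, so only the change of the ratio between genotypes is compared, not which gene has more RNA. The log2 ratio averaged 0.37 ± 0.20 in pine1 and -0.67 ± 0.07 in WT (SD, n = 3 each), a difference of 1.04 or 2.05-fold. The two-sided exact permutation test gave p = 0.10, the smallest that 3 against 3 samples allow (adjusted 0.40 over 4 pairs of loci), and the difference ranged from 0.93 to 1.12 when any 1 library was left out.

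**Figure D2:**
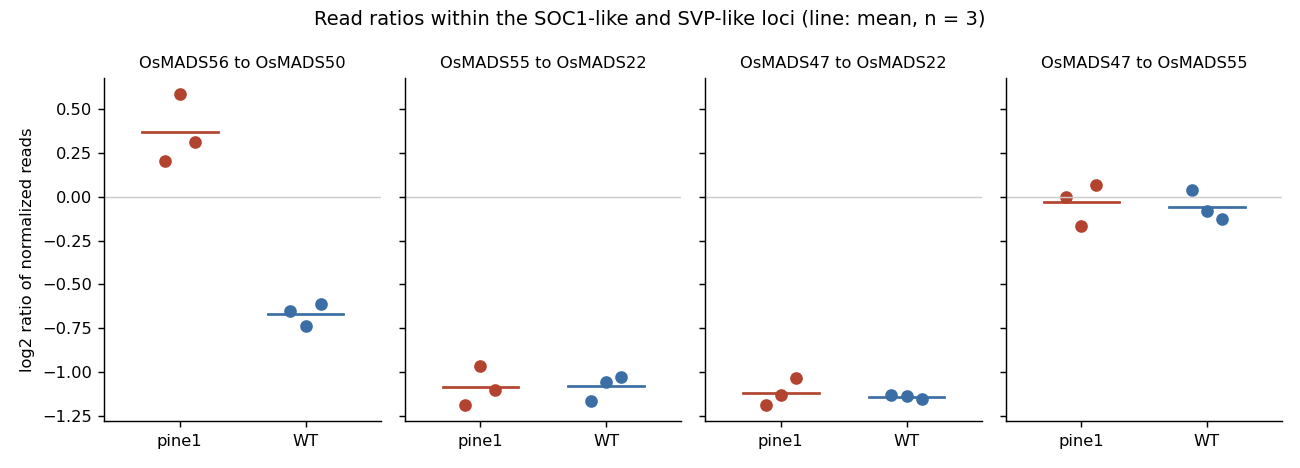
The log2 ratio of normalized reads within 4 pairs of related loci, for pine1 (red, left) and WT (blue, right); points are libraries and lines are means (n = 3). The OsMADS56 to OsMADS50 ratio is above 0 in pine1 and below 0 in WT, and the 3 SVP-like ratios overlap between genotypes.

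Of the 5 KNOX loci fixed as apex markers, 3 were called higher and 0 lower by limma, beside 4.02% of all genes called higher. OSH1 (Os03g0727000), which keeps meristem cells undifferentiated, had 998, 1033 and 761 normalized reads in pine1 replicates 1 to 3, against 281, 441 and 421 in WT. OSH15 and OSH6 were the other 2, and the OSH6 call ended without any 1 of the pine1 libraries or WT replicate 3 (limma adjusted p up to 0.0805). The loci Os03g0771500 and Os05g0129700 had log2 fold changes of -0.59 (SE 0.25, limma adjusted p = 0.226) and -0.02 (SE 0.12, limma adjusted p = 0.952). Set against the summed normalized reads of the 5 loci, OsMADS56 came to 26.4%, 29.4% and 27.5% in pine1 replicates 1 to 3 and to 18.8%, 14.9% and 16.4% in WT replicates 1 to 3. It remained higher in every pine1 library on that scale, by 1.67-fold. OsMADS50 on the same scale came to 22.9%, 19.6% and 22.1% in pine1 and to 29.6%, 25.0% and 25.1% in WT, so that it was lower in every pine1 library. Both differences have an exact permutation p of 0.10, the smallest possible (adjusted 0.10 over 7 loci). On this scale all 7 tested members stood apart with that same p, among them OsMADS47, whose own fold was 1.00. The larger marker sum in pine1 enters each by construction, so this p-value does not tell the pair from loci at equal levels. This scale was chosen after the data were examined and rests on loci of which 3 rose. The part of apex content in the rise of the pair was not tested.

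The 3 SVP-like loci had nearly equal levels in the genotypes. By limma 0 of the 3 were called, 0 had an unadjusted p under 0.05, and edgeR and DESeq2 also called 0. OsMADS22 (Os02g0761000, chromosome 2), whose product restrains brassinosteroid response, had 6044, 5918 and 5397 normalized reads in pine1 replicates 1 to 3, against 5887, 5995 and 5718 in WT replicates 1 to 3. Its log2 fold change was -0.02 (SE 0.05, limma adjusted p = 0.866), and the 95% interval of the fold ran from 0.907 to 1.07. The lowest library was pine1 replicate 3, and the other 5 lay within a narrow band.

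OsMADS47 (Os03g0186600, chromosome 3) is known as a repressor of brassinosteroid signalling, and of the 7 tested members its fold change was the closest to 1. It had 2649, 2704 and 2634 normalized reads in pine1 replicates 1 to 3, against 2689, 2725 and 2567 in WT replicates 1 to 3. The coefficient of variation was 1.39% in pine1 and 3.11% in WT, and the fold was 1.00 with a 95% interval of 0.929 to 1.08 (limma adjusted p = 0.991). Highest and lowest of the 6 values were both WT libraries.

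OsMADS55 (Os06g0217300, chromosome 6), which acts with OsMADS22 in brassinosteroid response, had 2647, 3030 and 2511 normalized reads in pine1 replicates 1 to 3 and 2621, 2885 and 2806 in WT replicates 1 to 3. The pine1 range enclosed the WT range. The fold was 0.983, with a 95% interval of 0.875 to 1.10 (limma adjusted p = 0.887). The intervals of these 3 loci hold neither a rise nor a fall as large as the 1.32-fold rise of OsMADS50.

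The SVP-like loci were compared among themselves in the same way. The OsMADS55 to OsMADS22 read ratio was 0.438, 0.512 and 0.465 in pine1 replicates 1 to 3, against 0.445, 0.481 and 0.491 in WT replicates 1 to 3. On the log2 scale the genotypes differed by 0.00, and by 0.02 and 0.03 for the pairs OsMADS47 to OsMADS22 and OsMADS47 to OsMADS55. The pairs with OsMADS47 were not planned but added, and they count among the 4 pairs of the adjustment. The exact permutation p-values of the 3 pairs were 1.0, 0.7 and 0.9 (adjusted 1.0 each), and the values overlapped in all 3.

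**Figure D3:**
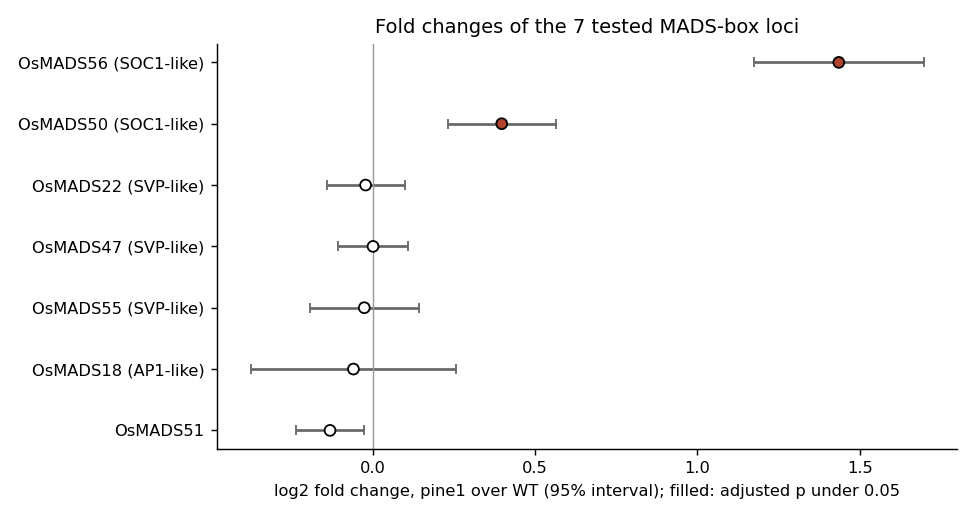
Log2 fold change of pine1 over WT for the 7 tested loci with 95% intervals from limma; filled points have an adjusted p under 0.05. OsMADS56 (1.43) and OsMADS50 (0.40) are filled, and the SVP-like intervals span 0.

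The AP1-like and SEP-like loci, which mark the conversion to an inflorescence meristem, had almost no reads or did not pass the test. OsMADS14 (Os03g0752800, chromosome 3), an AP1-like gene that rises after florigen arrives, had 2, 7 and 2 reads in pine1 replicates 1 to 3, against 0, 5 and 3 in WT replicates 1 to 3. OsMADS34 (Os03g0753100, chromosome 3), the SEP-like partner in inflorescence meristem identity, had 1, 3 and 2 reads in pine1 and 2, 1 and 2 in WT. Both genes lie next to each other in the RefSeq gene table, on the chromosome given by their identifiers, and both were near the floor of the libraries in each genotype.

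Over the 3 libraries of a genotype, OsMADS14 summed to 11 reads in pine1 and 8 in WT, a ratio of 1.48 per normalized depth with an exact 95% interval of 0.541 to 4.23. OsMADS34 summed to 6 reads in pine1 and 5 in WT, a ratio of 1.29 (0.328 to 5.34). These intervals cover counting error only. A difference was not detectable at this depth, and a change as large as that of OsMADS56 lies inside both intervals. In the fit without a filter on low reads the adjusted p was 0.707 for OsMADS14 and 0.89 for OsMADS34 (limma).

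OsMADS18 (Os07g0605200, chromosome 7), an AP1-like gene that is also expressed in vegetative tissue, was the 1 member of its class with enough reads to test. Its normalized reads were 283, 319 and 238 in pine1 replicates 1 to 3, against 258, 334 and 282 in WT replicates 1 to 3. The ranges overlapped, with the lowest value in pine1 and the highest in WT. The mean was 280 ± 40.8 in pine1 and 291 ± 39.2 in WT (SD, n = 3 each), a fold of 0.960 with a 95% interval of 0.771 to 1.20 (limma adjusted p = 0.859). On the log2 scale that interval is the widest of the 7 tested members.

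OsMADS51 (Os01g0922800, chromosome 1), a promoter of flowering in short days that acts upstream of Ehd1, was read lower in every pine1 library but did not pass. It had 3233, 3283 and 3168 normalized reads in pine1 replicates 1 to 3, against 3463, 3648 and 3494 in WT replicates 1 to 3. The groups did not overlap, and both were tight, at 3228 ± 57.6 in pine1 and 3535 ± 99.3 in WT (SD, n = 3 each). The log2 fold change was -0.13 (SE 0.05, 95% interval -0.23 to -0.03), with a limma p of 0.0188 that became 0.14 after adjustment over all genes. No gene with so small an absolute log2 fold change was called: the smallest among the 1559 calls was 0.17.

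Values of the members tended to be high or low in the same libraries. Within pine1, replicate 2 had the highest normalized reads for 8 of the 9 members and replicate 3 the lowest for 7. Within WT, replicate 2 was highest for 6 and replicate 1 lowest for 6. These are counts of libraries and not a test, and the members share the same size factor in each library. The share of all genes with this order is not given here, and the 9 include OsMADS14 and OsMADS34, near the floor. The order is therefore not read as a trait of these loci.

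Other MADS-box loci, fixed as a list, gave 3 called genes of 14 tested, all of them higher in pine1. Among the 3, OsMADS37 passed the filter on low reads only through its pine1 libraries. In the floral organ class, 12 of 17 loci have a row, 8 were tested, 1 was called higher and 0 lower by limma (2 higher at an unadjusted p under 0.05, 1 with edgeR and 2 with DESeq2), beside 4.02% of all genes called higher. Their summed normalized reads were 808 to 877 in pine1 and 658 to 669 in WT, and without the called locus, again a sum added after the data were seen, the other 11 overlapped, at 462 to 507 in pine1 and 465 to 479 in WT. The list had 0 of the 12 at 0 reads in pine1 and 1 at 0 in each of 2 WT libraries. The called locus was MADS32 (Os01g0726400), described in the authors' deposited table as a regulator of floral organ identity. It had 370, 374 and 345 normalized reads in pine1 replicates 1 to 3, against 192, 189 and 194 in WT replicates 1 to 3. The values were tight in both genotypes, and the log2 fold change was 0.92 (SE 0.09, limma adjusted p = 7.5e-04). SPW1 (Os06g0712700), a gene of lodicule and stamen identity named here after its values were seen, had 87.0, 111 and 60.9 in pine1 and 32.8, 56.7 and 36.8 in WT. Its groups did not overlap, yet it missed the threshold by limma (log2 1.02, SE 0.28, limma adjusted p = 0.0698). SPW1 does have a row in the authors' deposited table. Other loci of this list went the other way, 2 of them also named after their values were seen. OsMADS2 (Os01g0883100) did not overlap and was lower in pine1, uncalled (log2 -0.23, SE 0.11, limma adjusted p = 0.27). OsMADS4 (Os05g0423400) overlapped and was not called (log2 -0.61, SE 0.30, limma adjusted p = 0.288). Of the 8 tested, 5 had a log2 fold change above 0.

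Of the AGL17-like and remaining MADS-box loci, 9 of 10 have a row, 6 were tested, 2 were called higher and 0 lower by limma, edgeR and DESeq2 alike (2 higher and 0 lower at an unadjusted p under 0.05), beside 4.02% of all genes called higher. OsMADS37 (Os08g0531900), listed as similar to AGL72, a SOC1 relative of Arabidopsis, had 46.4, 17.2 and 75.6 normalized reads in pine1 replicates 1 to 3, against 5.46, 3.84 and 2.56 in WT replicates 1 to 3. The lowest pine1 value stood above the highest WT value, and the log2 fold change was 3.07 (SE 0.52, limma adjusted p = 0.00939). With 5, 4 and 3 reads in WT replicates 1 to 3, it passed the filter on low reads only through pine1, where it was high. MADS26 (Os08g0112700), described as a regulator of stress responses, had 397, 487 and 405 in pine1 and 248, 304 and 262 in WT. Its log2 fold change was 0.66 (SE 0.12, limma adjusted p = 0.0115), and the call ended without WT replicate 1 (limma adjusted p = 0.0502).

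**Figure D4:**
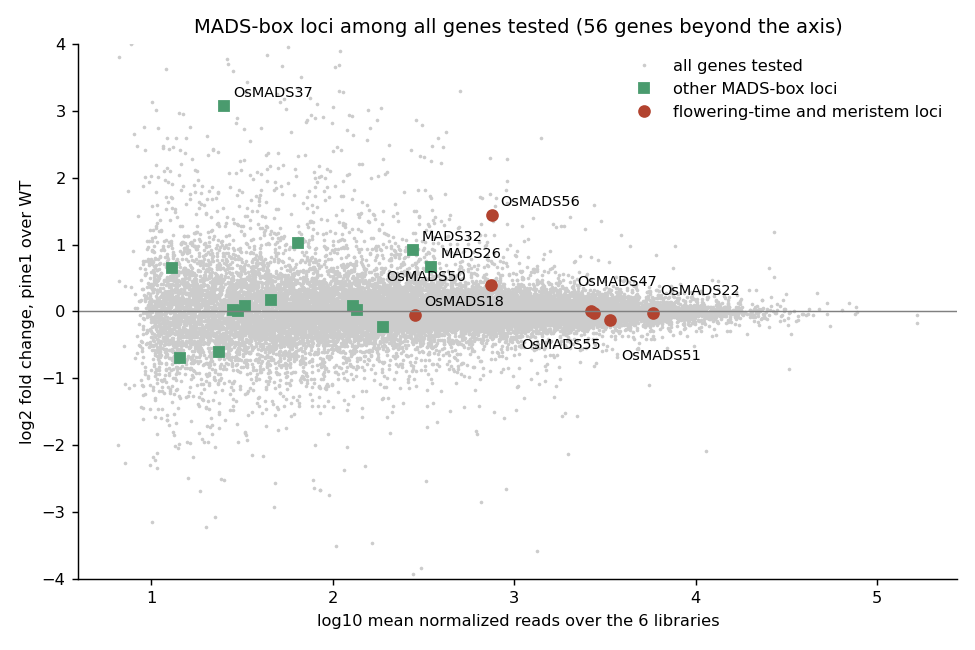
Log2 fold change of pine1 over WT against the mean normalized reads over the 6 libraries (log10 axis), for all genes tested (grey), the 7 tested members (red) and 14 other MADS-box loci (green); 56 genes lie beyond the vertical axis, which ends at a log2 fold change of 4 in either direction. OsMADS56 (1.43) and OsMADS37 (3.07) stand apart from the band of genes at 0, in which the SVP-like loci lie. OsMADS37 has few reads and passed the filter on low reads only through pine1, where it was high.

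Partners of these MADS-box genes in the florigen complex and in meristem identity were followed at 13 loci, of which 10 were tested. By limma 1 was called higher and 0 lower (2 higher and 1 lower at an unadjusted p under 0.05, and 1 higher and 0 lower with edgeR and with DESeq2), beside 4.02% of all genes called higher and 2.44% lower. Rcn4 (Os04g0411400), a relative of TERMINAL FLOWER 1, which holds meristems in a vegetative state, had 78.3, 95 and 89.1 normalized reads in pine1 replicates 1 to 3, against 13.1, 20.2 and 23.1 in WT replicates 1 to 3. The genotypes were well apart (log2 2.19, SE 0.25, limma adjusted p = 0.00129). The loci entered as RCN1 (Os11g0152500), RCN2 (Os02g0531600) and RCN3 (Os12g0152000), named after their values were seen, overlapped and were not called. Their log2 fold changes were -0.18, -0.41 and 0.26 (limma adjusted p = 0.623, 0.581 and 0.747). The median log2 fold change of the 10 was 0.05. Photoperiod regulators upstream of florigen gave 5 tested loci of 9, with 0 called by limma (1 higher at an unadjusted p under 0.05, 0 with edgeR and 1 higher with DESeq2) and a median of 0.07, where 6.46% of all genes were called in either direction.

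The genes whose pattern over the 6 libraries was most like that of OsMADS56 were sought among 797 other tested genes with a symbol in the authors' deposited table. Likeness was the root mean square difference of log2 values after centring each gene on its mean. The closest was OsTIP4 (Os01g0232000), of the aquaporin family, at 0.10, with 132, 148 and 126 normalized reads in pine1 replicates 1 to 3, against 52.4, 47.1 and 56.4 in WT replicates 1 to 3. PsbR (Os07g0147500), a photosystem II protein, followed at 0.14 and OsEXO70FX1 (Os05g0369900), of an exocyst subunit family, at 0.15. OsRLCK66 (Os02g0212900), a receptor-like cytoplasmic kinase, stood at 0.18 and GLN1 (Os03g0223400), a cytosolic glutamine synthetase, at 0.19. All 5 rose, with log2 fold changes of 1.28 to 1.50, which the search itself favours. Genes that come into that table were chosen by a test on the same libraries.

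**Figure D5:**
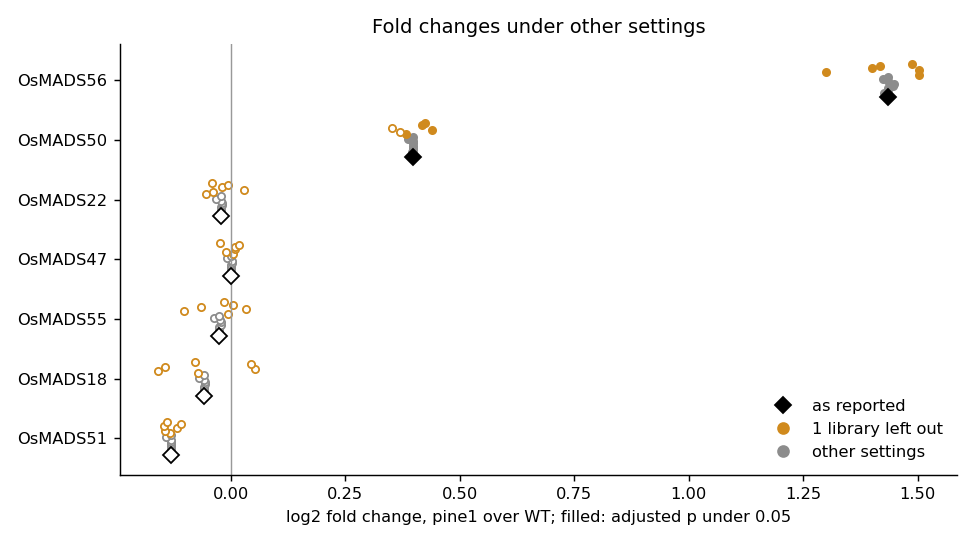
Log2 fold change of pine1 over WT for the 7 tested loci as reported (black diamonds), with 1 library left out (orange) and under the other tests, filters and scalings (grey); filled points have an adjusted p under 0.05. OsMADS56 is filled throughout, between 1.30 and 1.50, OsMADS50 has 2 open points, and the other loci stay open.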

How the data were processed

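The deposited sheet stacks a table of normalized reads over the authors' own comparison. The tools were FastQC, STAR, HTSeq and DESeq2, on the build IRGSP-1.0, per the submitters' processing notes, which give no versions. The deposited normalized reads are a signal per gene (a size-factor score): in each library 100% of the values are a whole number of reads times 1 step, to within 0.001 reads, which let the reads be recovered. The authors' lower table gives log2 fold changes of WT over pine1 with standard errors and adjusted p-values. Nothing in the labels says whether libraries keep strand, and reads of a gene and its antisense partner cannot be told apart.

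With limma 3.58.1, log2(normalized reads + 1) was modelled on genotype (intensity trend; Benjamini-Hochberg over 24149 genes kept by filterByExpr of edgeR 4.0.16 at a minimum count of 10). Fold changes are on that scale, which understates changes of low genes. edgeR and DESeq2 1.42.0 on recovered reads were alternatives. R 4.3.3, Python 3.11.15, scipy 1.17.1 and matplotlib 3.10.9 were used. Each fit was tested on simulated data. Members, lists and tests were chosen with earlier results of these data known. All members are named; of other lists, up to 2 called loci per direction; and the 5 genes closest in pattern to the member with the smallest p. List loci were entered from memory. Of the members, 9 carry their name in the RefSeq gene table (assembly ASM3414082v1), on the chromosome in the identifier, and 2 in the authors' table.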

Additional observations from a re-analysis of the deposited data

How the results depend on the processing

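Across 15 alternatives, OsMADS56 kept its direction and its call (log2 fold change 1.30 to 1.50, limma, edgeR or DESeq2 adjusted p up to 0.00158), and OsMADS51 stayed below 0 and uncalled (-0.15 to -0.11). OsMADS50 lay between 0.35 and 0.44 when 1 library was left out, and members called were 1 to 2. Genes called higher were 970 and with 1 library left out 563 to 757, and genes called lower were 589 and with 1 library left out 261 to 544: 563 and 261 without WT replicate 1, 270 lower without WT replicate 2, and 640 and 384 without WT replicate 3. Signs of uncalled members near 0 turned with a library left out: OsMADS22 ranged from -0.054 to 0.028, OsMADS47 from -0.024 to 0.019, OsMADS55 from -0.103 to 0.033 and OsMADS18 from -0.158 to 0.053. OsMADS47 was also -0.0090 with upper-quartile scaling. Per summed normalized reads of the apex markers, a scale added after the data were examined, the log2 differences were 0.74 for OsMADS56, -0.30 for OsMADS50, -0.72 for OsMADS22, -0.70 for OsMADS47, -0.72 for OsMADS55, -0.76 for OsMADS18 and -0.83 for OsMADS51; the larger marker sum in pine1 enters each by construction. With the replicate block, OsMADS56 had 1.43 and OsMADS50 0.40, and no member's call changed. Same-numbered samples correlated in their deviations at 0.06, 0.02 and 0.13, so the numbers were not taken as pairs. The OsMADS15 to OsMADS14 ratio could not be computed without values for OsMADS15. Depth limits OsMADS14 and OsMADS34, whose intervals allow changes of several-fold.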
